A study of Mus musculus with 45 samples.

Results

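The small RNAs of alveolar macrophages (AM) were compared between SP-A2 female mice exposed to ozone (O3) and SP-A2 female mice exposed to filtered air (FA). The 8 mice, 4 after FA and 4 after O3, were taken by their labels from the 45 mice of the series, and all 373 miRNAs listed for these 8 mice were tested. The mice were 12 weeks old, were exposed for 3 h and were killed for lavage after 18 h of recovery. All 8 carried the human SP-A2 variant 1A0 on a C57BL/6 background (C57BL/6J in the study's methods) that lacks mouse SP-A, so SP-A2 females after FA are the control, and neither group has the mouse protein. Per the study's methods, the estrous cycle of the females was synchronized by group housing and male bedding. The promoter that drives the transgene is not given in the sources used here. The cells were those recovered by bronchoalveolar lavage, each library is 1 mouse, and in such bulk RNA fewer cells of a type and less RNA per cell cannot be told apart. Other sets of mice served for comparison of the response: 6 SP-A2 males (3 after FA, 3 after O3), 8 co-ex females with the human variants 6A2 and 1A0 (4 and 4) and 8 KO females without SP-A (4 and 4).

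A mature miRNA guides an Argonaute protein to messenger RNAs that pair with its seed, bases 2 to 8, and lowers their stability or translation, so miRNAs with the same seed share many targets. SP-A is a lung collectin that binds microbes and surfactant lipids and acts on AM, the resident phagocytes of the airspace, and ozone is an oxidant gas that injures the airway lining and draws in inflammatory cells. Among macrophage miRNAs, miR-155 is known to be induced by inflammatory signals and to promote cytokine production, miR-146a and miR-146b to restrain the same signalling, and miR-142 and miR-223 to be made almost wholly by blood cells. The miR-125b and miR-100 genes are known to be active in stem cells and in fibroblast-like cells.

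The sequences shown are those on which the results turn: the 4 miRNAs called between FA and O3, the relatives that share a seed with them, and the leukocyte miRNA miR-142a-3p, whose groups did not overlap. They are RefSeq mature sequences of build GRCm38.p6, matched by name, with the seed in capitals; 321 of the 373 miRNAs had a match, with 260 different seeds. The first set shares the seed ACCCGUA:
miR-100-5p: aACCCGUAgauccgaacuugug
miR-99a-5p: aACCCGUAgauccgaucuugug
miR-99b-5p: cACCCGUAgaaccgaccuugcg
The second set shares the seed CCCUGAG:
miR-125b-5p: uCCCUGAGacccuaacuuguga
miR-125a-5p: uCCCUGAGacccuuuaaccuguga
miR-351-5p: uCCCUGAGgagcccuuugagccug
The other miRNAs have seeds of their own:
miR-125b-1-3p: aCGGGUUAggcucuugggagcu
miR-155-5p: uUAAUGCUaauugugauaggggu
miR-142a-3p: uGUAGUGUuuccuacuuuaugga
Counted from 1 at the 5′ end of miR-100-5p, miR-99a-5p differs from it by the single substitution A16U, and miR-99b-5p by A1C, U11A, A16C and U21C. How reads that fit more than 1 of these relatives were assigned is not given in the sources used here, so the split between miR-100-5p and miR-99a-5p is uncertain.

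The genes of these miRNAs lie in few places. On the plus strand of chromosome 9 (GRCm38.p6), the Mir100 hairpin at chr9:41531425-41531504 and the Mir125b-1 hairpin at chr9:41581926-41582002 both sit in introns of the noncoding transcript 3110039I08Rik. Mir125b-1 gives miR-125b-1-3p from one arm and miR-125b-5p from the other, and miR-125b-5p has a second source, Mir125b-2 at chr16:77646279-77646300. Mir125b-2 and Mir99a, at chr16:77598936-77599000, are in introns of the noncoding Mir99ahg. The relatives miR-99b-5p, let-7e-5p and miR-125a-5p come from one more such group on chromosome 17, in the protein-coding gene Spaca6, with Mir99b at chr17:17830194-17830215 and Mirlet7e at chr17:17830352-17830444 intronic and Mir125a at chr17:17830812-17830879 overlapping an exon. The Mir155 hairpin is exonic in the noncoding Mir155hg at chr16:84714140-84714204.

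The values are reads divided by a factor of each mouse, called normalized values here, and the reads on listed miRNAs ranged from 162130 in O3 replicate 1 to 1550516 in O3 replicate 2. The worth of 3 reads, taken as the lowest level that can be told from 0, was between 2.07 and 6.55 normalized values after FA and between 1.40 and 17.2 after O3. The miRNAs that mark leukocytes were present in every mouse: miR-142a-3p lay between 181 and 689 and miR-223-3p between 1219 and 5069. Some libraries stood apart from the rest of their group. In FA replicate 4, miR-6236 and miR-6240, 2 miRNAs looked up after the values were seen, reached 89827 and 65316, against at most 3913 and 19146 in any other mouse. In O3 replicate 4, the muscle miRNAs miR-1a-3p and miR-133a-3p reached 16878 and 9163, against at most 289 and 157 in the others. O3 replicates 1 and 3 had the most similar profiles of all pairs (Spearman's rho of 0.907 over the 373 miRNAs). They held 14.3% and 12.2% of their values in the erythroid list, nearly all of it in miR-486b-5p. O3 replicate 2 was instead most like FA replicate 2 (rho of 0.893).

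Between FA and O3, 4 of the 373 miRNAs passed an FDR of 0.1, which is 1.07% of those tested: miR-155-5p fell, and the chromosome 9 products miR-125b-1-3p and miR-100-5p rose together with miR-125b-5p (limma on log2(normalized value + 1), Benjamini-Hochberg adjustment). Of these calls, that of miR-125b-1-3p is no independent support, since it had no read after FA and is listed only through its O3 values. In all, 46 miRNAs had an unadjusted p below 0.05, 33 of them higher after O3 (8.85%) and 13 lower (3.49%). In 13 miRNAs every O3 mouse was above every FA mouse (3.49%), and in 6 every O3 mouse was below every FA mouse (1.61%). The 13 include 3 miRNAs with no read after FA, and miR-1306-3p, with reads in 1 FA mouse. Every listed miRNA is above 0 in at least 4 mice, so these are listed only through their O3 values. The counts in each direction are therefore a description. The median log2 difference over all 373 was 0.18, with 215 positive and 158 negative.

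miR-100-5p had normalized values of 29.1, 61.4, 25.2 and 67.7 after FA and of 661, 309, 413 and 201 after O3. The lowest O3 mouse, O3 replicate 4, was well above the highest FA mouse, so the groups did not overlap. The mean was 45.8 ± 21.8 after FA and 396 ± 197 after O3 (SD, n = 4 each), a ratio of 8.64, with a log2 change of 3.08 (SE 0.63, limma adjusted p = 0.0454).

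miR-125b-5p, which shares a chromosome 9 source with miR-100-5p, had values of 2009, 601, 584 and 1044 after FA and of 14066, 3048, 9828 and 2380 after O3. O3 replicates 1 and 3 were far above O3 replicates 2 and 4, and these were still above the highest FA mouse. The log2 change was 2.60 (SE 0.59, limma adjusted p = 0.0726), and the ratio of means was 6.92.

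miR-125b-1-3p, the other arm of the same chromosome 9 hairpin, had no read in any of the 4 FA mice and normalized values of 51.7, 64.7, 114 and 22.1 in the O3 mice. These O3 values stand for 9, 139, 121 and 22 recovered reads, so the difference does not rest on 1 or 2 reads in any mouse. Against the worth of 3 reads in each FA mouse, the O3 mean was at least 16.1-fold higher, and the limma adjusted p was 0.0454. Every listed miRNA is above 0 in at least 4 mice, so miR-125b-1-3p is listed only through its O3 values. Its p is therefore no independent support. The fitted log2 difference depended on the pseudocount, from 9.08 at 0.1 to 2.71 at 10.

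miR-155-5p had values of 352, 811, 644 and 701 after FA and of 189.6, 126, 61.5 and 104 after O3. Every O3 mouse was below the lowest FA mouse, FA replicate 1. The mean was 627 ± 196 after FA and 120.2 ± 53.5 after O3 (SD, n = 4 each), 5.21 times higher after FA, with a log2 change of -2.42 (SE 0.49, limma adjusted p = 0.0454).

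**Figure D1:**
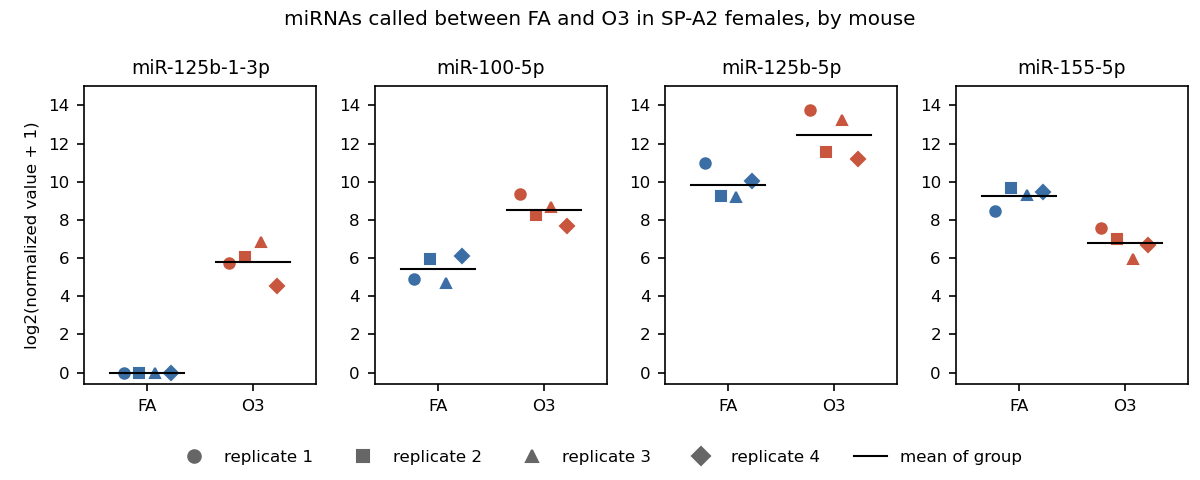
Level of the 4 called miRNAs in each mouse, as log2(normalized value + 1), after FA (blue) and after O3 (red), with a symbol for each replicate and a line at the group mean of these log2 values. The groups do not overlap in any panel, miR-125b-1-3p is at 0 in all 4 FA mice, and O3 replicates 1 and 3 are the highest for miR-125b-5p.

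These calls depended on single mice. Each of the 4 lost its call when FA replicate 2, FA replicate 3 or O3 replicate 3 was left out, and no miRNA was called then. Without O3 replicate 1, only miR-155-5p was called (adjusted p = 0.0759), without FA replicate 4 miR-155-5p and miR-125b-5p lost theirs (both adjusted p = 0.107), and without O3 replicate 2 the count rose to 26. The directions held in all of these fits. With O3 replicates 1 and 3 both left out, a fit added after the values were seen, no miRNA was called and the log2 differences were 2.55 for miR-100-5p, 1.54 for miR-125b-5p, 5.28 for miR-125b-1-3p and -2.38 for miR-155-5p.

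On recovered reads, edgeR called 2 miRNAs, miR-100-5p and miR-155-5p (both adjusted p = 0.0526), and DESeq2 called 26, 20 higher and 6 lower. DESeq2 called all 4 of the limma calls. Its smallest adjusted p-values were those of miR-125b-1-3p and miR-100-5p (both 4.11e-05), miR-155-5p and miR-6538 (both 5.70e-05). The high-numbered miR-6538 was at 6.23, 148, 326 and 209.6 after FA and at 18422, 227, 9966 and 834 after O3. Its O3 mean was carried by O3 replicates 1 and 3, while O3 replicate 2 was within the FA range, and limma gave an adjusted p of 0.174.

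The mesenchymal list, miRNAs known from fibroblasts and smooth muscle, had the highest median log2 difference of the marker lists with more than 1 member listed. Of its 15 members 12 were listed, and all 12 had a positive log2 difference, with a median of 2.47 beside 0.18 over all 373. Of these 12, 9 were higher with an unadjusted p below 0.05 (beside 8.85% of all miRNAs). In 6 the groups did not overlap (beside 3.49%), and 3 were called (beside 1.07%). The 3 called members, both arms of miR-125b and miR-100-5p, belong to the list and to the results above at once, and the list was written with earlier results of these data known, so its count is no independent evidence of the direction.

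miR-143-3p, abundant in smooth muscle and fibroblasts, was at 674, 125, 185 and 1127 after FA and at 3097, 1787, 2507 and 1363 after O3. The O3 mice were all above the FA mice, but FA replicate 4 and O3 replicate 4 were close. The log2 difference was 2.51 (SE 0.63) and did not pass (limma adjusted p = 0.125). miR-145a-5p, made from the same primary transcript, was at 99.7, 42.1, 92.7 and 21.8 after FA and at 689.5, 73.6, 323 and 315 after O3, so that O3 replicate 2 lay inside the FA range (log2 difference 2.29, adjusted p = 0.228).

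miR-214-3p, expressed with miR-199a from the Dnm3os transcript in mesenchymal cells, was at 163, 72.4, 56.9 and 118 after FA and at 1402, 284, 957 and 176 after O3. Its groups did not overlap, but O3 replicate 4 was only just above FA replicate 1 (log2 difference 2.42, limma adjusted p = 0.157). Its partner miR-199a-5p was at 0, 20.0, 39.7 and 0 after FA and between 50.3 and 140.0 after O3 (log2 difference 3.68, adjusted p = 0.298). With FA mice at 0, the log2 difference of miR-199a-5p ran from 2.01 to 5.35 over the alternative fits. miR-99a-5p (1.81) and miR-10a-5p (1.55) also had positive log2 differences, each with an adjusted p of 0.174 and each with O3 replicate 4 inside the FA range.

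Summed over the list, mesenchymal miRNAs made up 0.534%, 0.210%, 0.263% and 0.459% of the normalized values after FA and 2.66%, 1.16%, 2.11% and 0.723% after O3. O3 replicate 4 was the lowest of its group and still above all FA mice. With O3 replicates 1 and 3 left out, 4 of the 12 were higher with an unadjusted p below 0.05, beside 8 of all 373, none was called, and the median log2 difference was 1.54. The part of other cells in the lavage in these values was not tested.

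**Figure D2:**
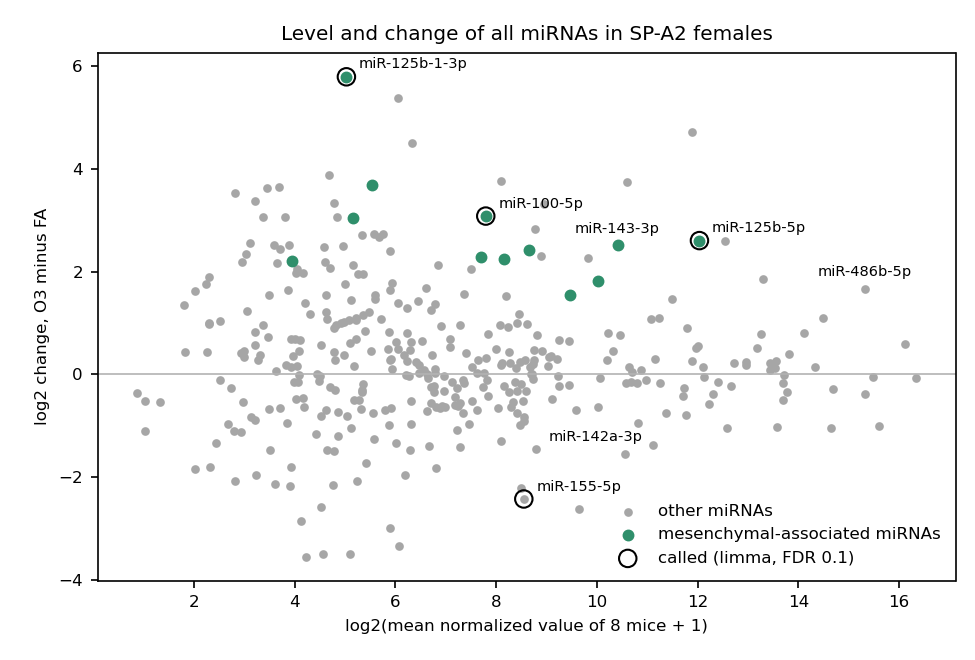
Log2 difference between O3 and FA against log2(mean normalized value of the 8 mice + 1), for all 373 miRNAs; the 12 mesenchymal miRNAs are green and the 4 called miRNAs are ringed. All 12 green points are above 0, 3 of the rings are among them, and miR-155-5p is the called miRNA below 0.

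The miRNAs that mark leukocytes and macrophages leaned the other way or were mixed. Of the 4 leukocyte miRNAs, 3 had a negative log2 difference (median -0.69) and none was called. miR-142a-3p was at 689, 669, 683 and 544 after FA and at 270.1, 337, 185 and 181 after O3. All O3 mice were below all FA mice, and the spread within each group was small (log2 difference -1.45, SE 0.38), but limma's adjusted p of 0.147 did not pass, and neither did edgeR's, while DESeq2's of 0.00725 did. miR-223-3p, a granulocyte and monocyte miRNA, overlapped between groups (log2 difference -0.74, adjusted p = 0.457).

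Of the 13 macrophage and inflammatory miRNAs 10 were listed, 5 with a positive and 5 with a negative log2 difference, a median of -0.09. miR-155-5p was the called member (beside 1.07% of all miRNAs). In all, 3 had an unadjusted p below 0.05, all lower after O3 (beside 3.49% of all miRNAs). The others were miR-21a-5p, induced in activated macrophages, and miR-146b-5p. miR-21a-5p was at 38756, 78305, 57696 and 81162 after FA and at 17813, 70801, 27519 and 25394 after O3, so that 3 O3 mice were below every FA mouse and O3 replicate 2 was within the FA range (mean 1.81 times higher after FA, limma adjusted p = 0.362).

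miR-146b-5p showed the same order, with 34650, 39681, 26009 and 28244 after FA and 7016, 38529, 10348 and 20738 after O3 (log2 difference -1.03, adjusted p = 0.384). miR-146a-5p was lower in every O3 mouse than in any FA mouse, between 177 and 354 against between 382 and 786, with an adjusted p of 0.468. Without O3 replicate 2, 26 of the 373 were called, 21 higher and 5 lower, and the 5 lower included 3 macrophage miRNAs and 1 leukocyte miRNA. The macrophage list made up between 9.86% and 17.2% of the values after FA and 2.89%, 15.4%, 4.56% and 6.18% after O3.

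Markers of red cells were uneven between the O3 mice. miR-486b-5p, made in red cell precursors and in muscle, was at 10983, 5335, 13963 and 17099 after FA and at 132663, 2595, 106101 and 39065 after O3. The O3 mice spanned from below the lowest FA mouse to far above the highest (log2 difference 1.67, SE 0.98, limma adjusted p = 0.531). miR-451a, the defining red cell miRNA, was much less abundant, at between 4.14 and 22.5 after FA and at 144, 2.33, 79.5 and 5.03 after O3, so that it too was highest in O3 replicates 1 and 3. Of the 5 erythroid miRNAs listed, 4 had a positive log2 difference (median 0.69) and none had an unadjusted p below 0.05; with O3 replicates 1 and 3 left out, 1 of the 5 was positive and the median was -1.61. The erythroid share of values was between 0.767% and 2.17% after FA and 14.3%, 0.360%, 12.2% and 5.08% after O3. Nearly all of it was miR-486b-5p, which alone held 14.2% and 12.1% of the reads of O3 replicates 1 and 3. How much of this share came from red cells was not tested. O3 replicates 1 and 3 were the highest in the erythroid share. With both left out no miRNA was called, and the log2 difference of miR-125b-5p went from 2.60 to 1.54. That of miR-100-5p went from 3.08 to 2.55, that of miR-125b-1-3p from 5.79 to 5.28 and that of miR-155-5p from -2.42 to -2.38. No miRNA was called either without FA replicate 2 or without FA replicate 3, whose erythroid shares were 0.767% and 2.17%. A link between this share and the calls was not tested.

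The other marker lists held no call. Of the 17 epithelial miRNAs, all listed, 14 had a positive log2 difference (median 0.51). Only 1 was higher with an unadjusted p below 0.05 (beside 8.85% of all miRNAs), miR-200b-5p (log2 difference 1.56, adjusted p = 0.342). With O3 replicates 1 and 3 left out, 5 of the 17 were positive and the median turned to -0.45. miR-205-5p, of squamous and basal epithelium, had the smallest p among those lower (log2 difference -0.52, adjusted p = 0.789). The endothelial miR-126a-3p was at 0, 0, 0 and 30.6 after FA and at 144, 26.5, 208 and 111 after O3, with FA replicate 4 above O3 replicate 2 (log2 difference 5.37, SE 1.45, adjusted p = 0.147). With 3 FA mice at 0, this value depended on the pseudocount, from 7.86 at 0.1 to 2.96 at 10. The lymphocyte miR-150-5p was between 665 and 4909 after FA and between 207 and 943 after O3 (log2 difference -1.55, adjusted p = 0.378). The 2 muscle miRNAs, miR-1a-3p and miR-133a-3p, had log2 differences of -1.38 and 0.29 on the scale of the fit, the first of which was 4.54 by edgeR, and in O3 replicate 4 alone they made up 3.38% of the values, against at most 0.0578% in the other mice.

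**Figure D3:**
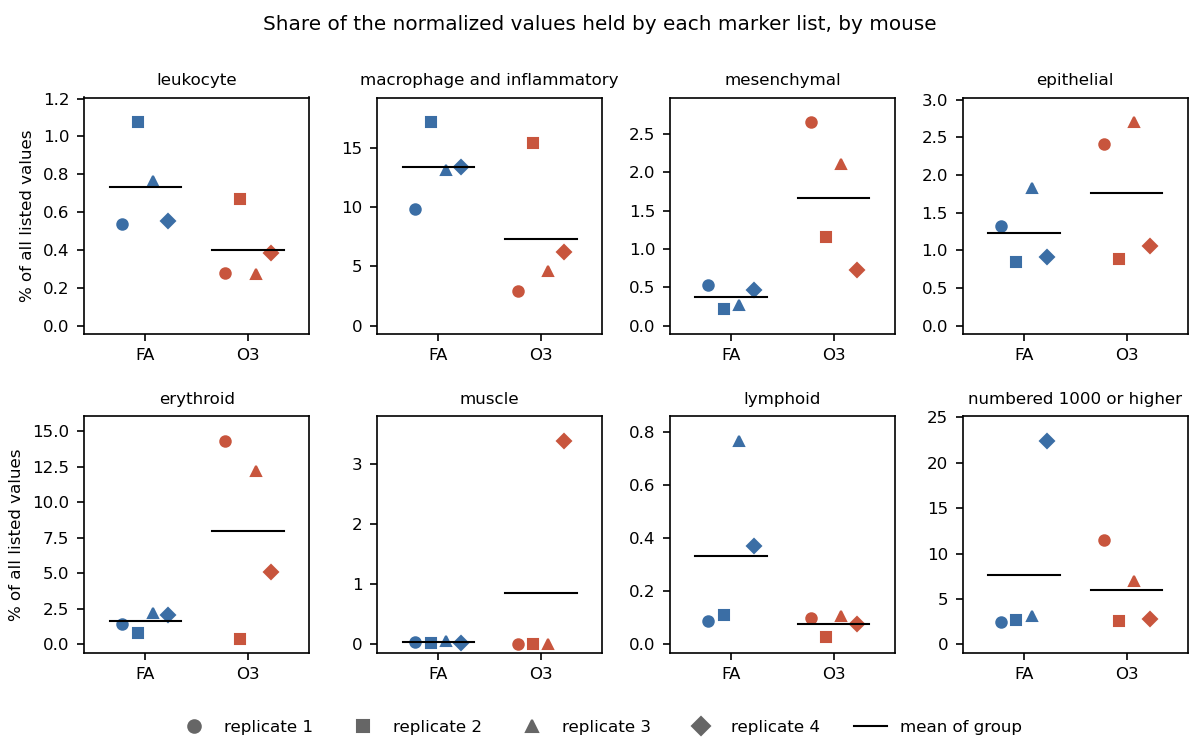
Percent of the normalized values of each mouse held by 7 marker lists and by miRNAs numbered 1000 or higher, after FA (blue) and O3 (red), with a line at the group mean; each panel has its own scale. The mesenchymal shares do not overlap between groups, while O3 replicate 2 lies apart from the other O3 mice in the macrophage list, O3 replicates 1 and 3 lead the erythroid list and FA replicate 4 leads the high-numbered miRNAs.

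In the families of the called miRNAs, the members had unequal log2 differences, and differences between members were not tested. Of the 3 miRNAs with the miR-125 seed, miR-125b-5p rose, whereas the much more abundant miR-125a-5p, between 32087 and 62938 in all mice, had a log2 difference of -0.04 (SE 0.32). miR-351-5p, an X-linked member, was at 818, 1631, 1108 and 2039 after FA and at 3246, 1718, 4275 and 2456 after O3 (log2 difference 1.07, adjusted p = 0.242). Summed over the 3, the values ranged from 35170 to 61835 after FA and from 42613 to 67774 after O3 and overlapped.

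The family with the miR-100 seed showed the same arrangement. miR-100-5p rose, miR-99a-5p had a log2 difference of 1.81, and the most abundant, miR-99b-5p, between 7087 and 16377, had one of 0.23 (SE 0.29, adjusted p = 0.835). In both families the member with the smallest difference in size came from the Spaca6 group on chromosome 17. miR-10a-5p and miR-10b-5p, which have the seed ACCCUGU, had log2 differences of 1.55 and 2.21.

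In the let-7 family, 10 members were listed, 5 with a positive and 5 with a negative log2 difference (median 0.07). let-7c-5p, which has a source in the Mir99ahg group on chromosome 16 and another, Mirlet7c-2, on chromosome 15, had the smallest p among those higher, with 29502, 7507, 11083 and 10232 after FA and 53352, 16010, 39692 and 15318 after O3. FA replicate 1 lay inside the O3 range (log2 difference 1.09, adjusted p = 0.398). let-7e-5p, from the chromosome 17 group, had the smallest p among those lower (log2 difference -0.50, adjusted p = 0.583). let-7c-5p differs from let-7a-5p by A19G and let-7e-5p by U9G, counted from the 5′ end of let-7a-5p:
let-7a-5p: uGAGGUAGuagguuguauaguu
let-7c-5p: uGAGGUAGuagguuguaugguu
let-7e-5p: uGAGGUAGgagguuguauaguu
Reads of these near-identical members may be split among them. let-7a-5p itself, the most abundant miRNA of all, had a log2 difference of -0.06 (SE 0.31).

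**Figure D4:**
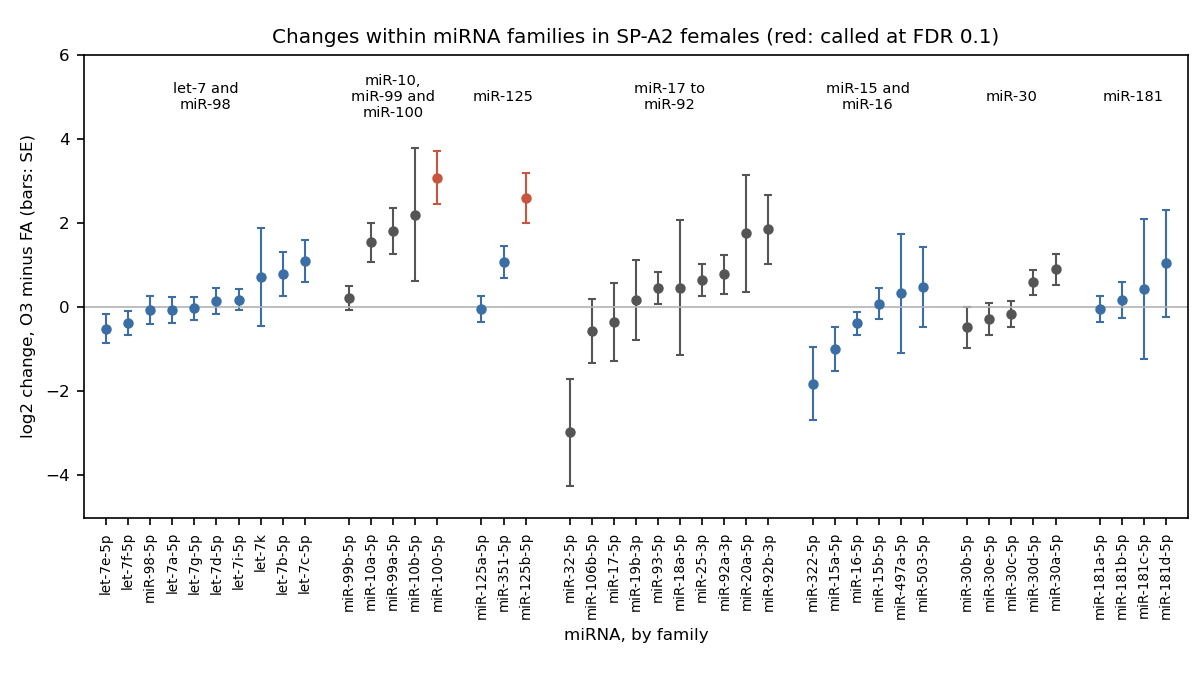
Log2 difference between O3 and FA with its standard error for the members of 7 families, each family sorted by its difference; the called miR-100-5p and miR-125b-5p are red, and blue and grey only set neighbouring families apart. Within the miR-125 family the values run from -0.04 to 2.60, and the let-7 members lie between -0.50 and 1.09.

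The other families held no call. In the miR-17 to miR-92 group, 10 of 14 members were listed, with a median log2 difference of 0.46. miR-92b-3p was at 4270, 1763, 4390 and 1865 after FA and at 23702, 1224, 31937 and 11401 after O3, with O3 replicate 2 below all FA mice (log2 difference 1.86, adjusted p = 0.380). miR-32-5p, which has the same seed AUUGCAC, was lower in every O3 mouse, between 0 and 31.7 against between 35.3 and 172 (log2 difference -2.97, adjusted p = 0.362). The medians of the miR-15 and miR-16, miR-29, miR-30, miR-23 to miR-27, and miR-181 lists lay between -0.16 and 0.30. In the miR-30 list, miR-30a-5p had an unadjusted p below 0.05 (log2 difference 0.90, adjusted p = 0.298). Among 95 miRNAs numbered 1000 or higher, 49 had a positive log2 difference (median 0.04) and none was called.

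The 10 most abundant miRNAs took up 55.1% ± 5.87 of the reads after FA and 54.6% ± 3.35 after O3 (SD, n = 4 each), and none of them was called. Beside those already described, miR-30d-5p was between 46460 and 72764 after FA and between 67689 and 109497 after O3 (log2 difference 0.60, adjusted p = 0.461). let-7f-5p, miR-23a-3p and let-7d-5p had log2 differences of -0.38, -0.28 and 0.15, each with an adjusted p above 0.6.

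Other miRNAs whose groups did not overlap were at lower levels and were not called. Among them, miR-1306-3p had 3 reads in 1 FA mouse and 0 in the others, so it is listed only through its O3 values. Its log2 difference ran from 1.43 to 6.12 over the alternative fits. Higher after O3 were miR-455-3p, from an intron of the collagen gene Col27a1 (between 43.7 and 228 after FA and between 338 and 1431 after O3, log2 difference 2.30, adjusted p = 0.157), miR-1306-3p (3.65, adjusted p = 0.195), miR-574-3p (1.01, adjusted p = 0.362) and miR-200a-5p (2.50, adjusted p = 0.471). Lower after O3 were miR-5107-5p, at between 45.9 and 197 after FA and between 0 and 35.2 after O3 (log2 difference -3.33, adjusted p = 0.278), and miR-140-5p (-1.96, adjusted p = 0.560), whose O3 mice other than O3 replicate 4 were between 63.4 and 71.7 beside at least 74.5 after FA.

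In all, 3 miRNAs had no read in the FA mice and some in every O3 mouse, and none showed the reverse. Since every listed miRNA is above 0 in at least 4 mice, these 3 are listed only through their O3 values, and their count is a description. Beside miR-125b-1-3p they were miR-212-3p, with 4, 25, 9 and 5 recovered reads after O3, and miR-130a-3p, with 5, 10, 34 and 1, both looked up after their values were seen. Against the worth of 3 reads in each FA mouse, the O3 means were at least 3.07-fold and at least 4.24-fold higher, and neither was called (limma adjusted p = 0.147 and 0.228). In base composition, the 12 matched miRNAs with groups apart and higher after O3 had a median GC content of 55.8%, the 4 lower had 34.8%, and all 321 had 50.0%. Across the 321 miRNAs, which are not independent replicates, GC content and log2 difference had a Pearson's r of 0.17.

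The choice of arm was compared in 85 hairpins with both arms listed, as the log2 ratio of the 5p to the 3p arm. None passed an FDR of 0.1 (0%), and 5 had an unadjusted p below 0.05 (limma). In 79 of the 85 the same arm was the stronger in the mean of both groups, and the 5p arm was the stronger in all 8 mice in 32 hairpins and the 3p arm in 25. The 3 with the smallest p were miR-1306, miR-92b and miR-574, each with an adjusted p of 0.585. miR-574 went from a mean log2 ratio of 0.87 after FA, the 5p arm stronger in every mouse, to -0.89 after O3, the 3p arm stronger in every mouse. miR-92b went from -4.74 to -6.92. miR-1306 went from 6.64 to 3.27, but its 3p arm had no read in 3 of the 4 FA mice, and the change of -3.37 became -1.15 with a pseudocount of 10. Without FA replicate 3, 1 hairpin was called, miR-27b, named after its value was seen.

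The response of SP-A2 females was then set against that of the other sets, over the miRNAs listed in both tables, as the difference between the 2 log2 differences (limma). Levels are not compared between tables, because each was normalized on its own. Against SP-A2 males, which carry the same human variant, 1 of 354 miRNAs passed (0.282%), miR-155-5p. In the males it was at 48.8, 122.7 and 57.5 after FA and at 197, 541 and 817 after O3. The O3 males were all above the FA males, the opposite of the females, and the responses differed by -5.06 on the log2 scale (females minus males, SE 0.83, adjusted p = 0.00470; edgeR adjusted p = 0.00298). The call held without any 1 of the 14 mice. In the males alone the log2 difference was 2.64 and did not pass (adjusted p = 0.118).

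The other called miRNAs had the same direction in the males: log2 differences of 1.41 for miR-100-5p, 0.63 for miR-125b-5p and 2.74 for miR-125b-1-3p. The differences in response, 1.66 (SE 0.85), 1.98 (SE 0.83) and 3.04 (SE 1.63), did not pass (each adjusted p = 0.838). miR-142a-3p was lower after O3 in males too, between 172 and 272 against between 1457 and 2407, with a log2 change of -3.28 that passed there (adjusted p = 0.00435). The difference in response, 1.84 (SE 0.53), did not pass (adjusted p = 0.427). edgeR on recovered reads called 1 more difference, miR-150-5p (-6.13, adjusted p = 0.0850).

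Against co-ex females, none of 283 miRNAs passed (0%), 9 had an unadjusted p below 0.05, and edgeR called none (11 with an unadjusted p below 0.05). The smallest p-values were those of miR-34c-5p (difference of -6.41, SE 2.19) and let-7c-2-3p (6.09, SE 2.27), both with an adjusted p of 0.833. miR-34c-5p was at 0 in 3 of the 4 co-ex FA mice and let-7c-2-3p in 3 of the 4 co-ex O3 mice, and the differences became -2.49 by edgeR for the first and 2.52 with a pseudocount of 10 for the second. miR-125b-5p rose in co-ex females as well, with values of 731, 423, 2261 and 467 after FA and of 3205, 4206, 7135 and 4962 after O3 (log2 change 2.63, adjusted p = 0.0225). The 2 responses differed by -0.02 with an SE of 0.87, which leaves room for a difference of either sign.

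Against KO females, none of 281 miRNAs passed (0%), 16 had an unadjusted p below 0.05, and edgeR called none (13 with an unadjusted p below 0.05). The smallest p-values were those of 2 erythroid miRNAs, miR-144-5p (6.51, SE 2.25) and miR-486b-5p (4.00, SE 1.49), both with an adjusted p of 0.775. In KO females miR-155-5p was at 273, 401, 0 and 353 after FA and at 1328, 264, 911 and 44.3 after O3, and these groups overlapped. The difference from SP-A2 females, -4.55 (SE 2.09), did not pass (adjusted p = 0.775).

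**Figure D5:**
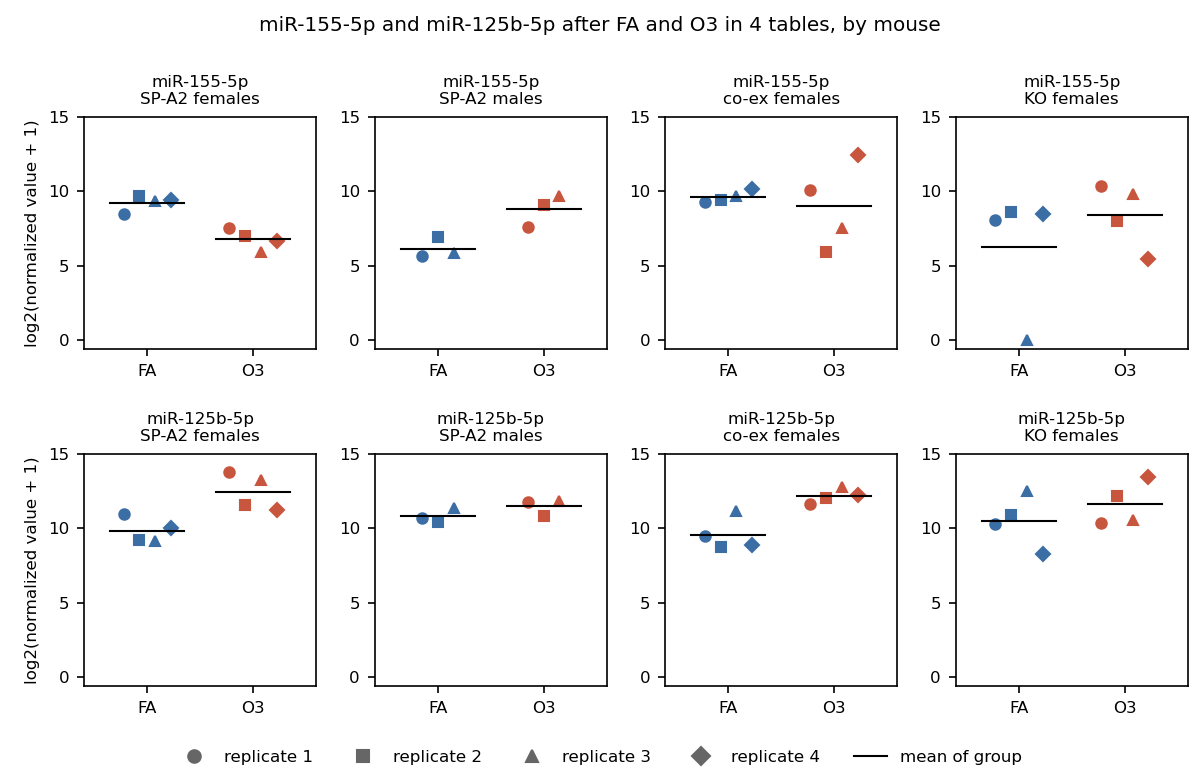
miR-155-5p (upper row) and miR-125b-5p (lower row) in each mouse as log2(normalized value + 1), after FA (blue) and O3 (red), in SP-A2 females, SP-A2 males, co-ex females and KO females, with a line at the group mean; levels are comparable only within a panel. miR-155-5p is lower after O3 in all SP-A2 females and higher in all SP-A2 males, and miR-125b-5p has a higher mean after O3 in every panel.

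The mesenchymal list had positive log2 differences throughout in the other sets too. All 12 members shared with SP-A2 males were positive (median 1.42), as were all 10 shared with co-ex females (3.96) and all 9 shared with KO females (1.60). Beside these, the medians over all shared miRNAs were 0.17, 0.32 and 0.49. No member differed in response from SP-A2 females at an FDR of 0.1. Epithelial miRNAs were also mostly positive in these sets, 14 of 17 in SP-A2 males (median 0.75), 14 of 14 in co-ex females (3.90) and 12 of 15 in KO females (1.63), and their part in the mesenchymal values was not tested. The erythroid list had a median of -2.37 over 4 shared miRNAs in SP-A2 males and of -2.42 over 4 in KO females, beside 0.35 and 1.18 for the same miRNAs in SP-A2 females. The co-ex females had a median of 1.63 over 3 shared miRNAs, beside 1.67 in SP-A2 females. No erythroid member differed in response at that FDR.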

How the data were processed

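Small RNA libraries of AM (NEXTflex Small RNA kit v3, HiSeq 2500) were made from each mouse. The authors deposited, for each genotype and sex, a table of normalized signal per miRNA: reads divided by a factor of that mouse. Every value was a whole multiple of 1 step per mouse (100% within 0.001), from which whole reads were recovered. Few values lie at the lowest steps outside FA replicate 4, O3 replicate 1 and the SP-A2 males, so the recovery is less strictly tested in the other mice. Every listed miRNA was above 0 in at least 4 of the 8 mice. The deposited p-value, q-value and ranking columns were not used. The methods name edgeR and TCC, the processing notes name CASAVA and edgeR, while the tables themselves carry DESeq2 in their names: which tool set the factors is uncertain. The aligner, miRNA reference and build are not given in the sources used here.

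Groups came from the sample labels. O3 and FA, arm ratios and differences in response were compared with limma 3.58.1 in R 4.3.3 at an FDR of 0.1, with a mean-variance trend in eBayes, after adding a pseudocount of 1 to each normalized value and taking log2. edgeR 4.0.16 (TMM, quasi-likelihood) and DESeq2 1.42.0 were run on recovered reads as alternatives, beside other pseudocounts, a low-value filter, rescaling, a replicate block and each mouse left out. Reads after PCR are not independent molecules, so bounds cover counting error only. The p-values measure the spread between these mice.

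The miRNAs named are those called, the 10 most abundant, those with groups apart and a mean of at least 10 (up to 8 each way by p), and those with the smallest p of each list, arm and response comparison. Members and lists were chosen with earlier results of these data known. Loci were read from GENCODE M21 and RefSeq (GRCm38).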

Additional observations from a re-analysis of the deposited data

Results flagged for a closer look

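The difference in response of miR-155-5p between SP-A2 females and SP-A2 males (-5.06 on the log2 scale, limma adjusted p = 0.00470) was singled out because the 2 sexes moved in opposite directions after O3 and the difference itself passed its test.

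A mouse far from the other 3 of its group was looked for in the 51 named miRNAs of the FA and O3 comparison, 102 groups of 4 mice, by Dixon's ratio at its 95% critical value. It was found in 15 of them, 14.7%. The critical value gives 5% only for independent, normally distributed values, and these groups are not independent. With the other 3 mice at 0, as for miR-1306-3p, miR-126a-3p and miR-486b-3p after FA, the ratio is 1 whatever the value. The 14.7% is therefore a description and not an excess over chance. FA replicate 4 and O3 replicate 4 gave 4 each. In FA replicate 4 these were miR-142a-3p (544, the others between 669 and 689), miR-146a-5p (786, the others between 382 and 387), miR-126a-3p (30.6) and miR-1306-3p (6.55), the last 2 at 0 in the other FA mice. In O3 replicate 4 they were the muscle miRNAs miR-1a-3p (16878) and miR-133a-3p (9163), miR-223-5p (361, the others between 74.7 and 110.8) and miR-140-5p (0, the others between 63.4 and 71.7).

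FA replicate 1 was apart for let-7c-5p (29502), let-7d-5p (31052) and miR-486b-3p (5.19), and FA replicate 2 for miR-23a-3p (33667). The other O3 mice gave 1 each: O3 replicate 1 for miR-1187 (17.2, which is 3 reads), O3 replicate 2 for miR-322-5p (142) and O3 replicate 3 for miR-199a-5p (140.0).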

How the results depend on the processing

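The 4 calls between FA and O3 stayed under pseudocounts of 0.1 and 10, a filter of at least 10 in at least 4 mice and median-ratio rescaling; at an FDR of 0.05 there were 3. edgeR on recovered reads called 2, DESeq2 26, and leaving out O3 replicates 1 and 3 together called 0. With each mouse left out in turn the count ran from 0 to 26. With the replicate number as a block, 0 were called and all 4 had a limma adjusted p of 0.109. Same-numbered mice correlated at 0.181, 0.283, -0.0423 and -0.131 over 311 miRNAs, and differently numbered mice at between -0.252 and 0.164. So few correlations cannot settle whether the numbers pair the mice. The block changed no call in the arms or responses. Leaving out single mice moved the arm count between 0 and 1, and the counts of differing responses between 1 and 3 (SP-A2 males), 0 and 1 (co-ex females) and 0 and 1 (KO females); edgeR called 2 against SP-A2 males.

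Signs turned only in miRNAs that were not called. With O3 replicates 1 and 3 left out they did so for let-7a-5p (0.18), miR-125a-5p (0.12), miR-486b-5p (-0.11), miR-23a-3p (0.037), miR-1a-3p (1.52), miR-181d-5p (-0.96) and miR-181a-5p (0.24). By edgeR and DESeq2 they did so for let-7d-5p (-0.014 and -0.0050), miR-1a-3p (4.54 and 4.55), miR-144-5p (1.24 and 1.27) and miR-503-5p (-0.11 and -0.12), by DESeq2 for miR-449a-5p (-0.021), and by pseudocount for miR-133a-3p (-0.49 at 0.1) and miR-144-5p (0.39 at 10). With single mice left out, the ranges that crossed 0 were -0.18 to 0.14 for let-7a-5p, -0.22 to 0.086 for miR-125a-5p, -2.65 to 1.74 for miR-133a-3p, -4.09 to 0.59 for miR-1a-3p, -1.07 to 1.42 for miR-144-5p, -0.22 to 0.12 for miR-181a-5p and -0.14 to 1.05 for miR-503-5p. The cause was not tested.

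With 4 mice a group and 3 reads worth up to 17.2 in O3 replicate 1, small differences in miRNAs near that level were not detectable.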
